A study of Rattus norvegicus with 20 samples.

Results

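The receptors described here are those for oxytocin (Oxtr), vasopressin (Avpr1a), orexin (Hcrtr1 and Hcrtr2), melanocortins (Mc4r), glucagon-like peptide 1 (Glp1r) and galanin (Galr1). They were chosen by name, as array probe sets annotated to exactly 1 of these symbols, and each of the 7 genes had 1 probe set among 14217 genes named by a single symbol. The animals were alcohol-preferring (P) rats, a line selected for high voluntary ethanol intake, and all 20 gave tissue from the central nucleus of the amygdala (CeA), 1 array per animal. The ethanol group was 10 rats that could drink solutions of 15% and 30% ethanol as adolescents, and the control group was 10 rats that had water only. Sex, age in days and the amount drunk are not stated in the labels, and no animal of a non-preferring line was analysed here. Precision is limited by how many arrays there are.

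All 7 proteins are G-protein-coupled receptors for neuropeptides. The oxytocin and vasopressin 1a receptors and both orexin receptors act mainly through Gq and phospholipase C, Mc4r and Glp1r through Gs and adenylyl cyclase, and Galr1 through Gi. Oxytocin and vasopressin fibres act on separate cell groups of this nucleus in fear control, orexin fibres reach it from the lateral hypothalamus, and Mc4r, Glp1r and Galr1 belong to systems that control feeding and, in rodents, ethanol intake.

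The arrays were alike over all 31042 non-control probe sets, with correlations between pairs of 0.977 to 0.997 and array medians of 7.92 to 7.97 on the log2 scale. Ethanol animal 5 and water animals 15 and 18 correlated least with the rest and are called the arrays that stand apart below. Of 12 genes listed for neurons of this nucleus, called the CeA neuron markers below, 11 were above the low range of the array. They include Prkcd (mean log2 value 9.70), Sst (13.06), Crh (9.81) and Penk (14.57), and Calcrl (6.0) was within that range. Some of the list, such as Gad1, Gad2, Slc32a1 and Penk, are not particular to this nucleus, so the list does not mark it alone. Other tissue was present in differing amounts. The mean log2 value of the measured striatal markers (14 of 15 listed) ran from 9.79 to 11.06 in ethanol and from 9.90 to 10.83 in water animals, and that of 6 choroid plexus and ependyma markers (7 listed) from 6.23 to 10.27 and from 6.58 to 10.76.

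Most of the receptor probe sets read low. The low range, or floor, was taken as a mean below the 40th percentile of all probe sets, a log2 value of 7.14. Mc4r (mean 8.43 over 20 arrays) and Hcrtr1 (7.74) were above it. Oxtr (4.69), Glp1r (5.38), Avpr1a (6.22), Galr1 (6.41) and Hcrtr2 (6.66) were below it. Of 35 measured genes that serve other organs, such as protamines, digestive enzymes and liver secretory proteins, 30 also lay below the floor, 6 of them below Oxtr, 17 below Glp1r, 28 below Avpr1a and Galr1 and 30 below Hcrtr2. These positions describe probe sets and give no order of RNA amounts, since each probe set has its own response.

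The spread between animals separated these low probe sets into 2 kinds. The pooled SD within groups was 0.15 for Oxtr and 0.15 for Glp1r, inside the 0.061 to 0.19 of the 30 genes of other organs below the floor. For Hcrtr2 it was 0.41, for Avpr1a 0.53 and for Galr1 0.61, all above that range and above the SD of 97.2%, 98.6% and 99.1% of all probe sets. Mc4r and Hcrtr1 had a pooled SD of 0.31 each. For the 2 receptors above the floor, the highest and the lowest of the 20 animals differed 2.36-fold for Mc4r and 2.03-fold for Hcrtr1. No fold is given for the others, whose lowest arrays lie among genes of other organs.

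**Figure D1:**
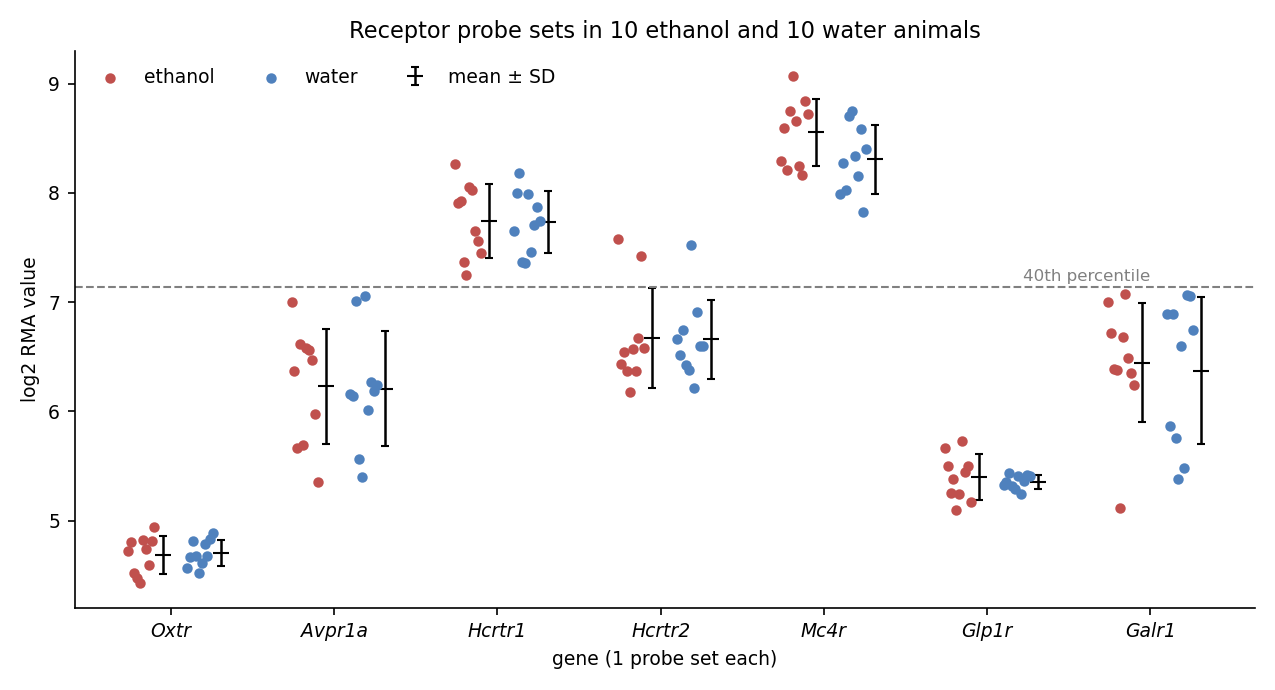
Log2 RMA values (y axis) of the 7 receptor probe sets (x axis), 1 point per animal, with ethanol animals in red, water animals in blue and bars for mean ± SD (n = 10 per group). The groups overlap for each receptor, and the means of 5 of the 7 lie below the dashed line at a log2 value of 7.14.

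The comparison of ethanol with water asked whether adolescent drinking left these receptors at another level. In limma's fit of all 31042 probe sets, 0 of the 7 receptors passed an adjusted threshold of 0.05, where 0.00966% of all probe sets did, and 0 were under an unadjusted p of 0.05, where 10.5% of all probe sets were. The median of their 7 differences was 0.024 on the log2 scale, beside 0.0097 over all probe sets. A count of 0 among the receptors is thus near the background.

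Mc4r (probe set 1370622_at, chromosome 18), the melanocortin receptor that lowers food intake and for which agouti-related protein is an inverse agonist, had the largest of the 7 differences. Its log2 values were 8.17, 8.63 and 9.07 (lowest, median, highest) in ethanol and 7.83, 8.31 and 8.75 in water animals. Ethanol animal 5 was the highest of all 20 and water animal 20 the lowest, and the groups overlapped. The means were 8.56 ± 0.31 and 8.31 ± 0.31 (SD, n = 10 per group), a difference of 0.25 (SE 0.13, 95% interval -0.017 to 0.52), with 6 of 10 ethanol animals above the water mean (limma adjusted p = 0.50). The difference was 0.21, 0.078 and 0.66 in the 3 runs of the accession order, which hold 4, 4 and 2 animals per group and which no label calls a batch. The striatal score moved the same way, 10.58 ± 0.36 against 10.41 ± 0.29, with 14 of 14 markers higher, 1 of them at an unadjusted limma p under 0.05. The CeA neuron score was also higher, 11.71 ± 0.25 against 11.60 ± 0.34. All 12 of 12 markers were higher, 0 of them at an unadjusted limma p under 0.05. By run the difference of this score was 0.17, 0.24 and -0.23. Within groups Mc4r had r = -0.35 with the CeA neuron score. With the striatal and cortical scores as covariates the Mc4r difference was 0.10 (limma adjusted p = 0.616). In bulk tissue fewer cells of a type and less RNA per cell cannot be told apart.

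The 2 orexin receptors had differences near 0, with intervals wider than those differences. Hcrtr1 (1369021_at, chromosome 5), which prefers orexin A, ran from 7.24 through a median of 7.78 to 8.27 in ethanol and from 7.36 through 7.72 to 8.19 in water animals, a difference of 0.012 (95% interval -0.26 to 0.28; limma adjusted p = 0.985). Its low end was ethanol animal 5 and water animal 16, its high end ethanol animal 1 and water animal 14. Hcrtr2 (1369377_at, chromosome 8), which binds both orexins, ran from 6.18 through 6.55 to 7.58 and from 6.22 through 6.60 to 7.53, a difference of 0.013 (95% interval -0.34 to 0.37; limma adjusted p = 0.989). Ethanol animals 1 and 9 (7.58 and 7.43) and water animal 17 (7.53) stood above the other 17 animals, of which the highest was water animal 19 at 6.91.

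Avpr1a (1369664_at, chromosome 7), the main vasopressin receptor of the brain, ran from 5.35 through 6.42 to 7.0 in ethanol and from 5.40 through 6.17 to 7.06 in water animals. Both groups thus covered nearly the same span, and the difference was 0.024 (95% interval -0.42 to 0.47; limma adjusted p = 0.983). Galr1 (1387702_at, chromosome 18), the Gi-coupled galanin receptor, ran from 5.12 through 6.44 to 7.08 and from 5.38 through 6.67 to 7.06. Water animals fell into a lower set of 4 (animals 13, 15, 16 and 18, at 5.38 to 5.86) and an upper set of 6 (6.60 to 7.06), while in ethanol animals animal 5 alone was under 6. The Galr1 difference was 0.071 (95% interval -0.45 to 0.59; limma adjusted p = 0.944). In the last run Avpr1a (-0.55), Galr1 (-0.61) and Hcrtr1 (-0.30) had the opposite sign of the first run (0.19, 0.27 and 0.066) and the second (0.14, 0.21 and 0.11).

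Oxtr and Glp1r gave the narrowest intervals. Oxtr (1387710_at, chromosome 4) ran from 4.43 through 4.73 to 4.94 in ethanol and from 4.52 through 4.67 to 4.88 in water animals, a difference of -0.016 (95% interval -0.15 to 0.12; limma adjusted p = 0.952). Glp1r (1369699_at, chromosome 20), the incretin receptor that also mediates satiety in the brain, ran from 5.10 through 5.41 to 5.73 and from 5.24 through 5.35 to 5.43, a difference of 0.043 (95% interval -0.097 to 0.18; limma adjusted p = 0.858). All 10 water animals lay inside the ethanol range of Glp1r, with an SD of 0.063 against 0.21. That ratio of 3.31 was reached by 0.171% of all probe sets, and it was chosen after its values were seen. Both probe sets sat among those of genes of other organs, so their narrow intervals bear on a low signal.

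**Figure D2:**
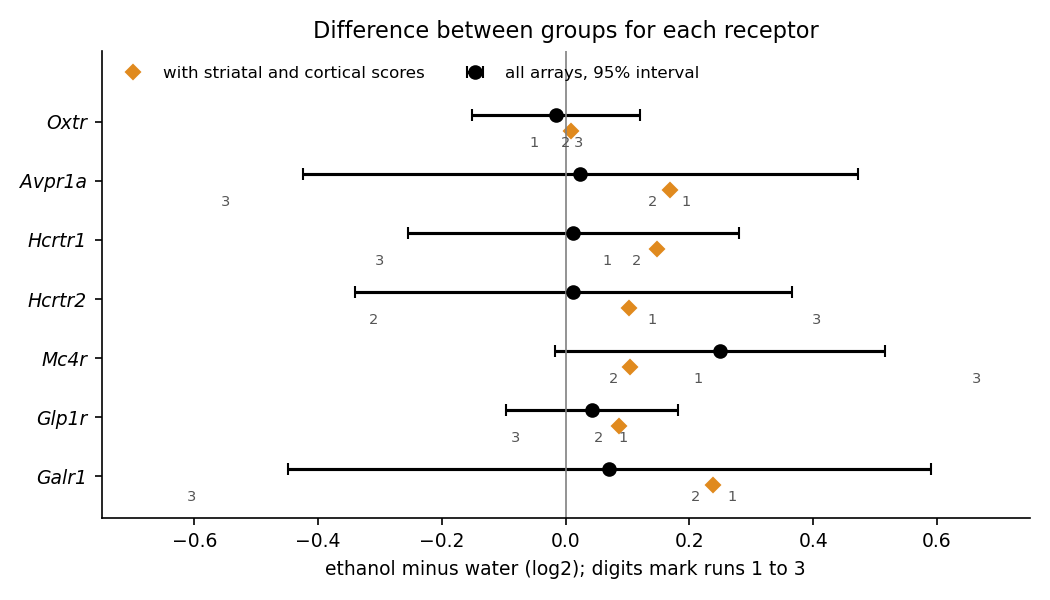
Ethanol minus water on the log2 scale (x axis) for each receptor (y axis), with black points and bars for the fit of all 20 arrays and its 95% interval, orange diamonds for the fit with the striatal and cortical scores as covariates, and digits for the 3 runs of the accession order. Each interval includes 0, and Mc4r lies farthest from it at 0.25.

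The other genes of these systems were also not called by limma. Of 36 measured ligands, related receptors, accessory proteins and G-protein effectors (42 listed), 0 passed, with 3 higher and 1 lower at an unadjusted p under 0.05, beside 5.8% and 4.67% of all probe sets. The median difference of the 36 was 0.031.

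Of the ligands, the orexin precursor Hcrt had the smallest p. Its log2 values ran from 5.83 through 6.06 to 7.44 in ethanol and from 6.20 through 6.92 to 7.86 in water animals, with ethanol animal 5 and water animal 18, both arrays that stand apart, at the high ends. The difference was -0.65 (SE 0.21), with 8 of 10 ethanol animals below the water mean and -0.59, -0.71 and -0.64 in the 3 runs (limma adjusted p = 0.350). Hcrt is made by neurons of the lateral hypothalamus and its probe set was below the floor (mean 6.63). The score of 7 hypothalamic markers, which include Hcrt, was 5.90 to 6.27 in ethanol and 6.09 to 6.50 in water animals, and 6 of its 7 probe sets were below the floor. Other marker lists moved the same way as Hcrt. Ethanol animals averaged 7.21 ± 1.18 and water animals 8.24 ± 1.34 on the choroid plexus and ependyma score, a difference of -1.03 with -1.01, -1.13 and -0.87 in the 3 runs and 6 of 6 markers lower. The myelin score was 11.95 ± 0.48 and 12.31 ± 0.40, with 14 of 14 markers lower, 7 of them at an unadjusted limma p under 0.05, and -0.35, -0.77 and 0.41 in the runs. Adjusted for the myelin score, the Hcrt difference was -0.68 (limma adjusted p = 0.355), and the part of the other tissues in it was not tested.

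The other ligands differed by less relative to their spread. Vasopressin (Avp) was at 0.27 (SE 0.16, limma adjusted p = 0.564) and Gal, the galanin precursor, at 0.031 (SE 0.21). In the 3 runs Avp was at -0.20, 0.69 and 0.37, and Gal at -0.30, 0.50 and -0.25. Oxt was at 0.040 (SE 0.28), Pomc, the melanocortin precursor, at 0.050 (SE 0.044), Gcg, the precursor of glucagon-like peptide 1, at 0.050 (SE 0.065), galanin-like peptide Galp at -0.046 (SE 0.063) and the melanin-concentrating hormone gene Pmch at -0.14 (SE 0.23). Of these ligands, Avp and Gal were above the floor. Among the related receptors the smallest p-values were those of Galr2 (-0.40, SE 0.23) and Mc5r (-0.055, SE 0.041), both below the floor. Galr2, which has 2 probe sets, was at -0.85, -0.30 and 0.28 in the 3 runs. Among the accessory proteins the smallest p-values were those of the receptor kinase Grk2 (0.080, SE 0.054) and the arrestin Arrb2 (0.10, SE 0.078). On the transduction side, Gna11, a Gq-class alpha subunit, was at 0.15 (SE 0.048, limma adjusted p = 0.358), with 10 of 10 ethanol animals above the water mean. Its difference was 0.15, 0.17 and 0.084 in the 3 runs. The phospholipase Plcb1 was at 0.11 (SE 0.044, limma adjusted p = 0.401), and at 0.12, 0.17 and -0.027 in the runs.

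Several of these receptors covaried within the groups, although Avpr1a, Glp1r and Galr1 are below the floor. The pooled SD of Glp1r (0.15) was also no larger than that of genes of other organs below the floor (0.061 to 0.19). In some of the settings given below, fewer or none of the pairs passed. After the mean of each group was removed, Avpr1a, Hcrtr1, Glp1r and Galr1 went up and down together across animals, and Mc4r was inverse to Hcrtr1 and Galr1. Of the 21 pairs, 8 passed a permutation test of Pearson's r within groups (Benjamini-Hochberg adjusted p under 0.05 over the 21). Avpr1a and Hcrtr1 had r = 0.71 (adjusted permutation p = 0.00609; rho = 0.61, permutation p = 0.00655), and r was 0.58 in the 10 ethanol and 0.86 in the 10 water animals. Hcrtr1 and Galr1 had r = 0.69 (adjusted permutation p = 0.00609; rho = 0.65, permutation p = 0.00350), with 0.81 in ethanol and 0.60 in water animals. Glp1r and Galr1 had r = 0.65 (adjusted permutation p = 0.000840; rho = 0.74, permutation p = 0.000490), with 0.78 in each group. The animals show the pattern directly. Ethanol animal 1 and water animal 14 were near the top for Avpr1a (7.0 and 7.01), Hcrtr1 (8.27 and 8.19) and Galr1 (7.01 and 6.89), whereas ethanol animal 5 and water animal 16 were near the bottom for all of these (5.69 and 5.40, 7.24 and 7.36, 5.12 and 5.38) and had the highest Mc4r of their groups (9.07 and 8.75).

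The sequences just before the transcription start are shown for the 4 receptors whose 6 pairs all passed (Avpr1a, Hcrtr1, Glp1r and Galr1) and for Mc4r, which was inverse to Hcrtr1 and Galr1. They are the 250 bases before the start from RefSeq on build GRCr8, 5′ to 3′ on the gene's strand, where 7 of 7 receptors matched by symbol. The positions are chr7:59999493-59999742 (plus strand) for Avpr1a, chr5:147770851-147771100 (minus) for Hcrtr1, chr20:8973143-8973392 (plus) for Glp1r, chr18:78062360-78062609 (minus) for Galr1 and chr18:62691686-62691935 (minus) for Mc4r. Capitals mark matches on either strand to the TATA box TATAAA, the GC box GGGCGG, the CCAAT box and the cAMP response element half-site TGACG.
Avpr1a: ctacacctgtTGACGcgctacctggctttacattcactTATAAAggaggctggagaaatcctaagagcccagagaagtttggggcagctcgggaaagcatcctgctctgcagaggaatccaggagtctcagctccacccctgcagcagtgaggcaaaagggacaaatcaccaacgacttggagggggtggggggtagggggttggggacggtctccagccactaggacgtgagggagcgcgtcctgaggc
Hcrtr1: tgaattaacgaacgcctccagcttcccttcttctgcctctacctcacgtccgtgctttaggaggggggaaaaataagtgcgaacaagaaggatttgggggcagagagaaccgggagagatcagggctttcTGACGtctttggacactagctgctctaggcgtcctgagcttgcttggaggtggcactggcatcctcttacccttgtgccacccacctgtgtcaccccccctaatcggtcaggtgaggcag
Glp1r: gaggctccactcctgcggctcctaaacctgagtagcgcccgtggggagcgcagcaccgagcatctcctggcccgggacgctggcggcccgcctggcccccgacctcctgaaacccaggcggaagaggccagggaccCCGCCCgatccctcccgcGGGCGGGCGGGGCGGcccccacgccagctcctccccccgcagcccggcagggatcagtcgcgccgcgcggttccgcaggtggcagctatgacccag
Galr1: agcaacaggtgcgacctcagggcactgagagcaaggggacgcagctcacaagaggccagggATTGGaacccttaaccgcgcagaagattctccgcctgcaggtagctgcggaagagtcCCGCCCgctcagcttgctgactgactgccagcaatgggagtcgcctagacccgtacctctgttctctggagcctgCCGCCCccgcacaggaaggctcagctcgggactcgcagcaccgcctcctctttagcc
Mc4r: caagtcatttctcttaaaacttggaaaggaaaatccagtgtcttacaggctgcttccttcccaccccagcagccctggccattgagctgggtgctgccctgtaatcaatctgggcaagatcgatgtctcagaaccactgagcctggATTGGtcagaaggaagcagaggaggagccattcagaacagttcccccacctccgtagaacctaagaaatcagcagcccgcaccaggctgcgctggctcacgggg
Avpr1a and Hcrtr1 each hold 1 TGACG half-site, which 18.2% of the 33469 RefSeq promoters of this length hold, and Glp1r, Galr1 and Mc4r hold none in this window. Oxtr, with no relation that passed, also holds 1. Glp1r has 4 GC boxes and Galr1 has 2, found in 30.5% of promoters, and 1 CCAAT box, found in 34.0%, and Mc4r has 1 CCAAT box. Avpr1a has 1 TATAAA match, found in 12.9%, far from the start at position -212. No receptor window holds the full element TGACGTCA, which overlaps TGACG and occurs in 1.59% of promoters. The E-box CANNTG, not capitalised here, was also searched. It has 1 match in Avpr1a, 2 in Hcrtr1, 1 in Glp1r, 1 in Galr1, 3 in Oxtr and none in Mc4r or Hcrtr2, and 65.5% of promoters hold it. The E-box thus does not set the 4 receptors apart from Oxtr, and each match is a run of letters and not a measured site.

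The other pairs that passed were Avpr1a with Galr1 (r = 0.64, adjusted permutation p = 0.0107; rho = 0.65, permutation p = 0.00284) and with Glp1r (r = 0.62, adjusted permutation p = 0.0107; rho = 0.67, permutation p = 0.00227), and Hcrtr1 with Glp1r (r = 0.59, adjusted permutation p = 0.0311; rho = 0.68, permutation p = 0.00228). Mc4r was inverse to Hcrtr1 (r = -0.63, adjusted permutation p = 0.0187; rho = -0.58, permutation p = 0.0124) and to Galr1 (r = -0.58, adjusted permutation p = 0.0286; rho = -0.58, permutation p = 0.0123). Mc4r did not pass with Avpr1a (r = -0.45, adjusted permutation p = 0.0931; rho = -0.24, permutation p = 0.321) or with Glp1r (r = -0.45, adjusted permutation p = 0.0931; rho = -0.43, permutation p = 0.0706). Hcrtr2 had r of 0.46 to 0.49 with Avpr1a, Hcrtr1, Glp1r and Galr1 and none of these passed (adjusted permutation p of 0.0796 to 0.108). Oxtr had r of -0.18 to 0.40 with the others, and none passed.

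Without the 2 arrays farthest from the median of the first-named gene, r was 0.68 for Avpr1a and Hcrtr1, 0.71 for Avpr1a and Galr1, 0.58 for Avpr1a and Glp1r, 0.60 for Hcrtr1 and Galr1 and 0.60 for Glp1r and Galr1. It was -0.53 for Hcrtr1 and Mc4r, 0.38 for Hcrtr1 and Glp1r (permutation p = 0.121) and -0.39 for Mc4r and Galr1 (permutation p = 0.132). The relations of Hcrtr1 with Glp1r and of Mc4r with Galr1 were thus weaker without those arrays, which include ethanol animal 5 in each case. Leaving out extreme arrays also narrows the range of values, and whether these relations rest on those arrays was not tested. Without single animals r was 0.49 to 0.69 for Hcrtr1 and Glp1r (adjusted permutation p up to 0.123). For Mc4r and Galr1 it was -0.69 to -0.47 (adjusted permutation p up to 0.147). Over all 20 arrays rho was 0.68 and -0.58 for these pairs. In the first run, which does not hold ethanol animal 5, r was 0.57 and -0.70. Of the 21 pairs 3 passed after adjustment without the 2 farthest arrays. Without the arrays that stand apart 1 passed, Glp1r with Galr1. In that setting r for the pairs named above kept its sign with sizes of 0.47 to 0.64. Within the first and the second run (8 animals each) r of these 8 pairs ran from 0.51 to 0.88 for the positive pairs, and it was -0.71 and -0.48 for Hcrtr1 with Mc4r and -0.70 and -0.48 for Mc4r with Galr1. The last run holds 2 animals per group, too few for r.

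Ethanol and water animals did not differ detectably in these relations. A permutation test of the difference of r between groups passed for 0 of 21 pairs, with 0 under an unadjusted p of 0.05 (permutation p of at least 0.212).

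The share of all probe sets that track a receptor puts these values in scale. A size of r of at least 0.6 with Hcrtr1 was found for 5.97% of all other probe sets and for 3 of the 6 other receptors. With Avpr1a the figures were 4.75% and 3 of 6, with Galr1 7.95% and 3 of 6, with Glp1r 2.6% and 2 of 6, and with Mc4r 2.42% and 1 of 6. With Hcrtr2 they were 5.86% and 0 of 6, and with Oxtr 0.322% and 0 of 6. In counts, from 752 (Mc4r) to 2469 (Galr1) probe sets reached this size of r with a receptor, and 100 did with Oxtr.

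**Figure D3:**
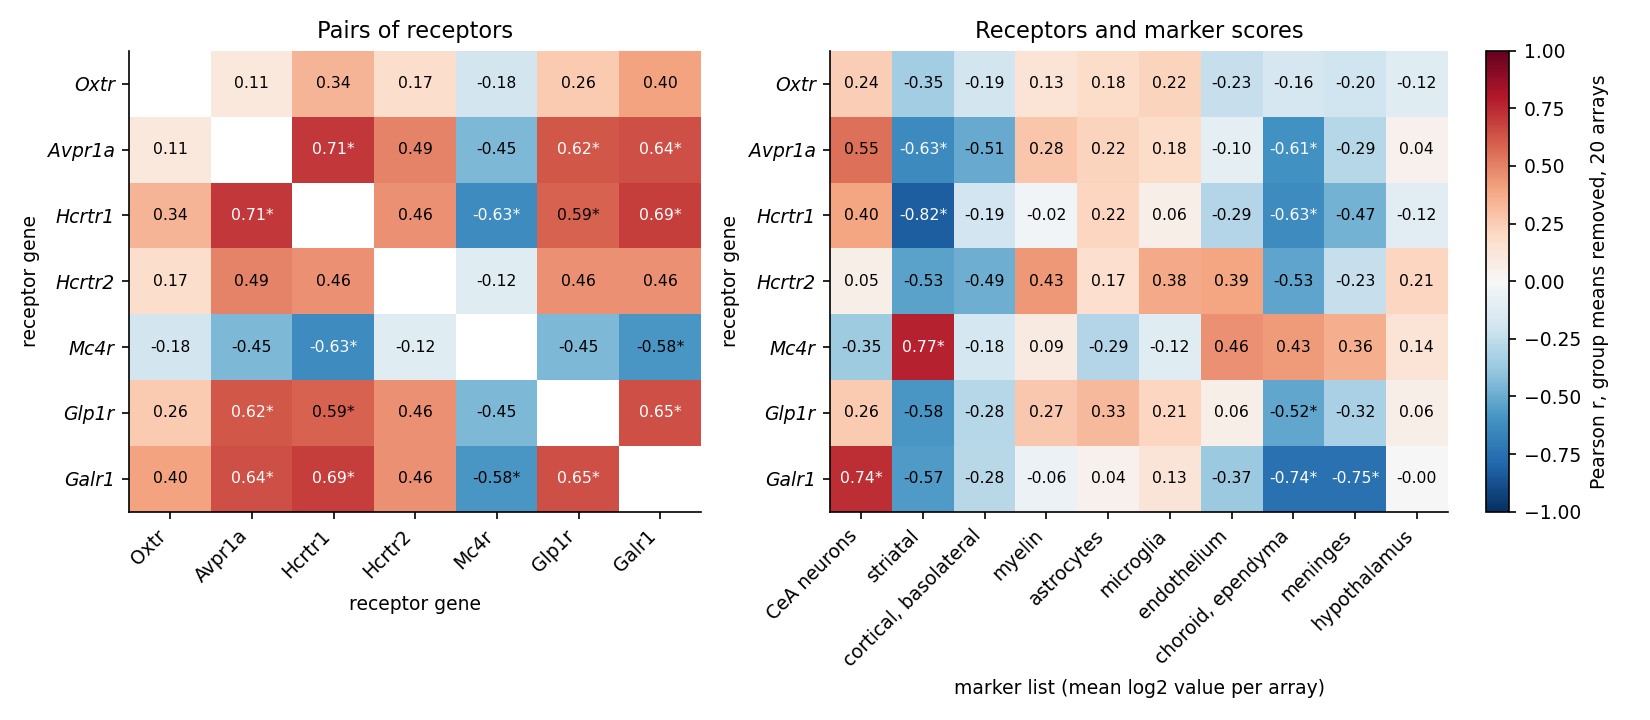
Pearson's r over 20 arrays after group means were removed, for pairs of receptors (left) and for receptors against the mean log2 value of 10 marker lists (right), with asterisks for an adjusted permutation p under 0.05. On the left Avpr1a, Hcrtr1, Glp1r and Galr1 form a positive block, and Mc4r has a negative r with each of them. On the right Mc4r has the opposite sign to them for the striatal and CeA neuron lists, and its r with CeA neurons (-0.35) did not pass.

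Some of these receptors also correlated with marker scores. Of 70 relations of 7 receptors with 10 marker scores, 9 passed an adjusted permutation p of 0.05. The share of all probe sets that follow these scores as closely was not computed, so the count cannot be called particular to these receptors. Hcrtr1 fell as the striatal score rose (r = -0.82, adjusted permutation p = 0.000700; rho = -0.80, permutation p = 0.000120), and Mc4r rose with it (r = 0.77, adjusted permutation p = 0.00280; rho = 0.81, permutation p = 0.000100). The unadjusted permutation p of Hcrtr1, 1e-05, is the smallest that 100000 resamples can give. Without the 2 arrays farthest from the median striatal score r was -0.75 for Hcrtr1 and 0.80 for Mc4r. Within the first and second run r was -0.92 and -0.70 for Hcrtr1 and 0.74 and 0.94 for Mc4r. Both also passed without the arrays that stand apart, at -0.80 and 0.70 (adjusted permutation p = 0.0147 and 0.0444), and with run means removed (0.0311 and 0.0294).

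Glp1r (r = -0.58, adjusted permutation p = 0.0721) and Galr1 (r = -0.57, adjusted permutation p = 0.0839) did not pass with the striatal score. Avpr1a fell with it (r = -0.63, adjusted permutation p = 0.0291; rho = -0.45, permutation p = 0.0545), and r was -0.52 without the 2 farthest arrays. Galr1 rose with the score of 12 CeA neuron markers (r = 0.74, adjusted permutation p = 0.00653; rho = 0.68, permutation p = 0.00158), and r was 0.66 without the 2 farthest arrays and 0.50 and 0.89 in ethanol and water animals. Galr1 also fell with the meningeal score (r = -0.75, adjusted permutation p = 0.00875; rho = -0.57, permutation p = 0.0123) and with the choroid plexus and ependyma score (r = -0.74, adjusted permutation p = 0.0197; rho = -0.36, permutation p = 0.128). Without the 2 farthest arrays these were -0.67 and -0.51, and within runs they differed, at -0.14 and -0.90 for meninges and -0.21 and -0.91 for choroid plexus. The choroid plexus score was also related to Hcrtr1 (r = -0.63), Avpr1a (r = -0.61) and Glp1r (r = -0.52), with adjusted permutation p-values of 0.0281, 0.0438 and 0.0438. For Glp1r r was -0.26 without the 2 farthest arrays. Over all arrays its rho was -0.52 (permutation p = 0.0262), and r was -0.54 in ethanol and -0.82 in water animals. Without the arrays that stand apart, r was 0.76 for Galr1 with CeA neurons and -0.65 for Avpr1a with choroid plexus, no smaller in size than over all arrays, although with 3 fewer arrays neither passed (adjusted permutation p = 0.0802 for each). The other relations of this paragraph had smaller r in that setting and did not pass (adjusted permutation p of 0.228 to 0.506). There r was -0.56 for Avpr1a with the striatal score, -0.59 for Galr1 with meninges, and with choroid plexus -0.45 for Galr1, -0.46 for Hcrtr1 and -0.24 for Glp1r. Hcrtr2 and Oxtr had no relation that passed.

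**Figure D4:**
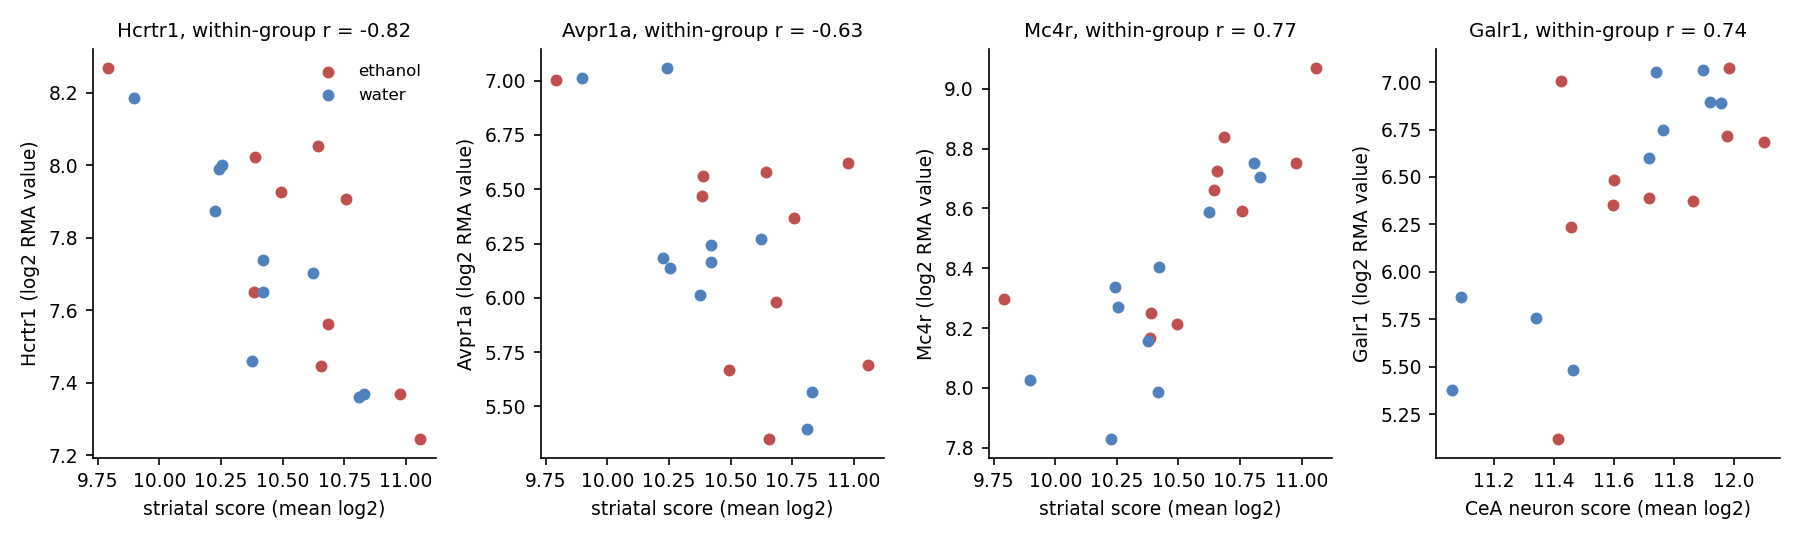
Log2 RMA values of Hcrtr1, Avpr1a and Mc4r against the striatal marker score and of Galr1 against the CeA neuron marker score (mean log2 value of the list per array), 1 point per animal in red for ethanol and blue for water. Hcrtr1 and Avpr1a go down and Mc4r goes up along the striatal score, with within-group r of -0.82, -0.63 and 0.77, and Galr1 goes up along the CeA neuron score (0.74).

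With the striatal and cortical scores regressed out, 0 of the 21 receptor pairs passed, and 0 did with the CeA neuron score added. In the first of these settings r was 0.45 for Avpr1a and Hcrtr1, 0.48 for Hcrtr1 and Galr1 and 0.44 for Glp1r and Galr1, and that of Hcrtr1 and Mc4r was -0.020. Regressing out the myelin score left 9 pairs that passed. The part of tissue make-up in these relations was not tested beyond these regressions.

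Receptors and their own ligands were also compared across animals, a comparison chosen after seeing the data, over 8 pairs. Galr1 rose with Gal (r = 0.57, adjusted permutation p = 0.0448; rho = 0.50, permutation p = 0.0339), with 0.69 and 0.75 in the first 2 runs and 0.37 without the 2 arrays farthest from the median of Galr1. Hcrtr2 was inverse to Hcrt (r = -0.59, adjusted permutation p = 0.0448; rho = -0.61, permutation p = 0.00746), at -0.42 in ethanol and -0.87 in water animals and -0.55 without the 2 farthest arrays, and within runs it was -0.23 and -0.87. Mc4r and Mrap2, the accessory protein that binds melanocortin receptors, had r = -0.49 (adjusted permutation p = 0.0841; rho = -0.44, permutation p = 0.0607). Hcrtr1 with Hcrt (-0.44), Avpr1a with Avp (0.36), Oxtr with Oxt (0.34), Mc4r with Pomc (-0.17) and Glp1r with Gcg (0.055) did not pass. The pairs that passed were not rare in size. An r of at least 0.6 in size, above that of Galr1 with Gal and Hcrtr2 with Hcrt, was reached by 7.95% of all other probe sets with Galr1. With Hcrtr2 it was reached by 5.86%.

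The genes most like the 2 receptors above the floor were named by the highest r over the 20 arrays after group means were removed. For Mc4r these were the serotonin receptor gene Htr4 (r = 0.93), the striatal G-protein subunit Gnal (0.93) and the striatal small GTPase Rasd2 (0.92), which is also in the striatal list. For Hcrtr1 they were Podxl2 (0.89), Nipsnap3b (0.89) and Cfap90 (0.88). In each group taken alone, r of these 6 ran from 0.84 to 0.95. These are the same arrays by which the 6 were picked, so the values are no separate support.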

How the data were processed

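The deposited table holds log2 probe set values per array, made by the authors with RMA, per the submitters' processing notes. The labels give no RMA version and no filter. Groups and animal numbers came from the sample titles, and no number occurs in both groups. The table has 31099 rows, of which 57 are array controls and were left out. Probe sets were named from GEO's platform annotation, and its symbols were checked by Entrez identifier against RefSeq genes (GRCr8). The members and lists were chosen with earlier results of these data known.

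The difference of ethanol from water came from linear models in limma 3.58.1 under R 4.3.3, moderated by eBayes. Its p-values are two-sided and adjusted by Benjamini-Hochberg over all 31042 probe sets and no filter on low values, so that every receptor had a value from 1 fit. Correlations used values with group means removed and two-sided permutation tests of 100000 resamples within groups (Python 3.11.15, numpy 2.4.6). Marker scores are means of 1 probe set per gene. The 3 runs follow the accession order. Genes were named by a fixed rule: the receptors, all ligands, any pathway gene past the threshold, the 2 smallest p-values of each other list, and the 3 genes with the highest r for receptors above the floor. Alternatives changed the filter, normalization, weights, eBayes settings, covariates, arrays, threshold and measure of correlation. The fit and the permutation test were tested on simulated data.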

Additional observations from a re-analysis of the deposited data

Results flagged for a closer look

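In 14 groups of 10 values (7 receptors, 2 groups each), the gap between the extreme animal and its neighbour was compared with the group's range, a check that picks about 1 in 20 groups by chance. Hcrtr2 in water animal 17 was at a log2 value of 7.53, with a gap of 0.472 of the range. Galr1 in ethanol animal 5, an array that stands apart, was at 5.12, with a gap of 0.572 of the range. The limit for 10 values is 0.466.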

How the results depend on the processing

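No paired analysis was possible because the groups share no animal number. Filters at the 40th and 60th percentile removed 5 and 7 receptors, and averaging the probe sets of a gene changed nothing because each receptor has 1. In the settings that kept receptors, 0 were called by limma, also at an adjusted threshold of 0.10 and without each animal in turn. The count of all probe sets called, 3 as reported, was 1 with array quality weights, 5 with the run as a block, 5 at a threshold of 0.10, 0 with the myelin score, 0 with the striatal and cortical scores and 0 without the arrays that stand apart, and 1 to 4 without single animals.

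Differences near 0 changed sign. Without the arrays that stand apart they were 0.018 for Oxtr, -0.020 for Avpr1a, -0.012 for Hcrtr1 and -0.017 for Hcrtr2. With array quality weights they were -0.050 for Hcrtr1, -0.081 for Hcrtr2 and -0.052 for Galr1. With the 3'/5' control ratio in the model they were -0.014 for Avpr1a, -0.049 for Hcrtr2, -0.0074 for Galr1 and -0.13 for Oxt. The myelin score gave 0.00017 for Oxtr and -0.029 for Gcg, and the striatal and cortical scores 0.0089 for Oxtr and -0.015 for Oxt. Without single animals the ranges were -0.045 to 0.012 for Oxtr, -0.066 to 0.12 for Avpr1a, -0.046 to 0.068 for Hcrtr1, -0.088 to 0.11 for Hcrtr2, -0.040 to 0.22 for Galr1, 0.0059 (without ethanol animal 7) to 0.076 for Glp1r, -0.16 to 0.15 for Oxt, -0.064 to 0.12 for Gal and -0.25 to 0.060 for Pmch. Mc4r kept its sign in each of these settings, at 0.19 to 0.30 without single animals, and Hcrt did too, at -0.77 to -0.55. The causes were not tested.

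The count of receptor pairs that passed, 8 as reported, was 0 with the striatal and cortical scores removed, 0 with the CeA neuron score removed as well, 1 without the arrays that stand apart, 3 without the 2 arrays farthest from the median and 5 to 11 without single animals (5 without ethanol animal 5). Over the 10 pairs of receptors above the 20th percentile, a restriction chosen after seeing the data, it was 5. With all 3 scores removed, also chosen after seeing the data, r was -0.027 for Avpr1a and Galr1, 0.53 for Hcrtr1 and Mc4r and 0.22 for Mc4r and Galr1. Relations with marker scores, 9 as reported, numbered 2 without the arrays that stand apart, 2 with run means removed and 3 by Spearman's rho.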

Other observations

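For receptors below the floor the genes with the highest r were also named, after their values were seen. Values given for each group come from the same arrays that picked these genes, so they are no separate support. Over the 20 arrays with group means removed, Galr1 was closest to the ephrin receptor gene Epha10 (r = 0.93), the dynein subunit gene Dync1i1 (0.92) and Herc3 (0.92). Hcrtr2 was closest to Slc35g2 (0.93), Plpp4 (0.93) and Ensa (0.92), and in each group alone r of these ran from 0.87 to 0.96. Avpr1a was closest to Pnoc, the precursor of nociceptin (0.88), Plpbp (0.87) and C7h12orf75 (0.86), with r for Pnoc of 0.85 in ethanol and 0.91 in water animals. Glp1r was closest to the channel gene Trpv2 (0.87). No gene followed Oxtr as closely. Its highest r was 0.66 with Sel1l, at 0.75 in ethanol and 0.47 in water animals.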
